A study of Mus musculus with 9 samples.

Results

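Hoxc4, Hoxc5, Hoxc6, Hoxc8, Hoxd1, Hoxd3, Hoxd4, Hoxd8, Hoxd9 and Hoxd10 are genes of the HoxC and HoxD clusters, which lie on mouse chromosomes 15 and 2. They were followed in F9 embryonal carcinoma cells, a mouse teratocarcinoma line that resembles early embryo cells and can turn into endoderm. Cells were given 0.5 µM retinoic acid (RA), 0.07 µM trichostatin A (TSA, an inhibitor of histone deacetylases) or the ethanol vehicle for 24 h, with 3 Affymetrix arrays per group. Members were found as probe sets to which the platform annotation gives a member as the only symbol, and the rule used no measured value. It found 10 of the 12422 probe sets that are not controls, for 8 of the 10 genes. Hoxd1 and Hoxd8 had 2 probe sets each. Hoxd3 and Hoxd4 occur together on 2 probe sets that carry several symbols, so no value was assigned to either. Nothing in the labels says that replicates came from different cultures, and the p-values therefore reflect variation among these arrays, possibly technical in origin. The labels describe the array facility in different words for the vehicle arrays than for the RA and TSA arrays, so a difference of facility, if there was one, and treatment cannot be told apart in comparisons with vehicle. Bulk RNA was measured, and fewer cells expressing a gene and less RNA per cell cannot be told apart.

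Hox genes encode homeodomain transcription factors that assign position along the body axis. Within a cluster all genes point the same way, and the paralog number counts from the 3′ end, whose low-numbered genes are switched on earliest and most anteriorly and are the most sensitive to retinoic acid in embryos and embryonal carcinoma cells. Polycomb proteins keep the clusters silent in undifferentiated cells, and receptors for RA bind direct repeats of the hexamer AGGTCA and close variants.

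The table holds, for each probe set and array, the ratio to the mean of the 3 vehicle arrays. The vehicle mean is therefore 1 for every gene, levels cannot be compared between genes, and it is not known which of these genes was above background in any group. Tests used limma on log2(ratio + 0.05) across all 12422 probe sets, with Benjamini-Hochberg adjusted p under 0.05 as the threshold. Changes are log2 differences on that scale, which understates changes of low values.

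No Hoxc or Hoxd probe set passed that threshold in any comparison. In RA against vehicle 0 of 10 passed, where 1.36% of all probe sets did (0.934% higher and 0.427% lower). At an unadjusted p under 0.05 (limma) 3 of the 10 were higher in RA, where 12.7% of all probe sets reached it (4.64% higher and 8.03% lower). In TSA against vehicle 0 of 10 passed, where 3.48% of all did (2.21% higher and 1.27% lower). At an unadjusted p under 0.05 (limma) 1 was higher and 2 were lower in TSA, where 19.6% of all reached it (7.41% higher and 12.2% lower). In RA against TSA 0 of 10 passed, where 3.91% of all did (1.70% higher and 2.21% lower). At an unadjusted p under 0.05 (limma) 4 were higher in RA, where 17.1% of all reached it (8.36% higher and 8.69% lower). With shares of all probe sets this low, a count of 0 among 10 does not set these genes apart from the rest of the array. Several Hoxa and Hoxb genes, described further down, did pass in RA. The lowest adjusted p among the 10 was 0.128 in RA against vehicle, 0.0968 in TSA against vehicle and 0.178 in RA against TSA (limma, Benjamini-Hochberg).

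The arrays of the groups compared stood fully apart in a few of these probe sets. In RA against vehicle this held for 1 of 10, with RA higher, where 17.0% of all probe sets did not overlap (5.93% higher and 11.0% lower). In TSA against vehicle it held for 2 of 10, 1 higher and 1 lower, where 26.3% of all did not overlap (9.26% higher and 17.1% lower). In RA against TSA it held for 4 of 10, all higher in RA, where 27.3% of all did not overlap (13.8% higher and 13.5% lower).

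Promoter sequence from RefSeq (GRCm38.p6) was matched by symbol for 7 of the 10 genes. The 250 bases upstream of the start that the RefSeq promoter table uses are shown for Hoxd1, Hoxd10 and Hoxc4, the members with a window whose arrays did not overlap in some comparison. The Hoxd1 window ends where the gene's annotated span begins, while the Hoxd10 and Hoxc4 windows lie inside their genes' annotated spans, which begin further upstream. Capitals mark, on either strand, the hexamers AGGTCA (reverse strand TGACCT), then AGTTCA (reverse strand TGAACT), then GGGTCA (reverse strand TGACCC) and then GGTTCA (reverse strand TGAACC), which are of the kind that RA receptors bind. They also mark CCAAT (reverse strand ATTGG), the letters bound by NF-Y. 
Hoxd1 promoter (GRCm38.p6, chr2:74762730-74762979, + strand): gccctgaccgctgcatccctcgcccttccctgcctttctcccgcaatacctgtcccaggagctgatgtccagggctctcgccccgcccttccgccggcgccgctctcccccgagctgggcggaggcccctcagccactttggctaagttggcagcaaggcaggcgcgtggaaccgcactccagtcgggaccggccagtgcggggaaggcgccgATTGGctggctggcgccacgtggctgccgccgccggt
Hoxd10 promoter (GRCm38.p6, chr2:74691641-74691890, + strand): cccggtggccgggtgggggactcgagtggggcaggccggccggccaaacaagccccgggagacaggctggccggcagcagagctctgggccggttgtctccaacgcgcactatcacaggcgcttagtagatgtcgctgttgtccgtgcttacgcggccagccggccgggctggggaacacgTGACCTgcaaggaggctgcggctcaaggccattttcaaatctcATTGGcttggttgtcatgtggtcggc
Hoxc4 promoter (GRCm38.p6, chr15:103034145-103034394, + strand): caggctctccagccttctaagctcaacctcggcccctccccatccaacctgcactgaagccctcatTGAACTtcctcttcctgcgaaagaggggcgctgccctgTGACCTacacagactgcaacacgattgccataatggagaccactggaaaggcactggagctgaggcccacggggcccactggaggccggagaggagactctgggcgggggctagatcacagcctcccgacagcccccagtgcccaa

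The Hoxd1 window holds none of the 4 hexamers and 1 CCAAT, the Hoxd10 window 1 hexamer and 1 CCAAT, and the Hoxc4 window 2 hexamers and no CCAAT, with no overlap between the motifs. Over all 7 genes 5 windows hold a hexamer (Hoxd10, Hoxd8, Hoxd3, Hoxd4 and Hoxc4), as do 38.6% of 32851 windows of the same length. CCAAT occurs in 5 of the 7 (Hoxd10, Hoxd8, Hoxd3, Hoxd4 and Hoxd1) and in 33.8% of all windows. No member's window holds 2 hexamers in the same direction 1, 2 or 5 bases apart, spacings that occur in 0.164%, 0.174% and 0.0883% of all windows. These are matches of letters in a short window and say nothing of sites outside it. The motifs were chosen after the promoters were read, so the shares are no test of enrichment. The Hoxd1 window had 71.6% G and C, the Hoxd10 window 65.6% and the Hoxc4 window 62.0%, where the median of all windows was 52.4%.

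Hoxd1, the member at the 3′ end of the HoxD cluster, had the highest change with each compound, on 1 of its 2 probe sets. On the probe set whose ID ends in _g_at, the RA arrays read 3.79, 2.23 and 2.66, the TSA arrays 1.93, 2.97 and 2.97, and the vehicle arrays 1.42, 1.12 and 0.458. Every RA and every TSA array lay above every vehicle array, and RA and TSA overlapped each other. The log2 change was 1.59 ± 0.41 (SE, n = 3 each) in RA, with a 95% interval of 0.65 to 2.52, and limma's adjusted p was 0.128. In TSA it was 1.45 ± 0.41, with an interval of 0.52 to 2.39 and a limma adjusted p of 0.0968. Without RA replicate 3 and vehicle replicate 3, the arrays with the highest median ratio of the 18S rRNA control probe sets (0.961 and 2.40, where the others ran up to 0.538), the change was 1.17 in RA (limma adjusted p = 0.206) and 1.00 in TSA (limma adjusted p = 0.135). RA and TSA differed by 0.13, with an interval of -0.80 to 1.07, which leaves room for a difference either way.

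The other Hoxd1 probe set, whose ID ends in plain _at and which the annotation derives from the same source sequence, gave overlapping groups. It read 2.64, 1.15 and 0.626 in RA, 1.68, 0.715 and 0.632 in TSA, and 1.51, 0.771 and 0.717 in vehicle. In each group replicate 1 was the highest. The log2 change was 0.38 in RA (interval -0.90 to 1.66) and -0.04 in TSA (interval -1.32 to 1.24). Averaged over both probe sets, Hoxd1 had a change of 0.98 in RA and 0.71 in TSA, with adjusted p of 0.308 and 0.336 in limma's fit over genes.

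**Figure D1:**
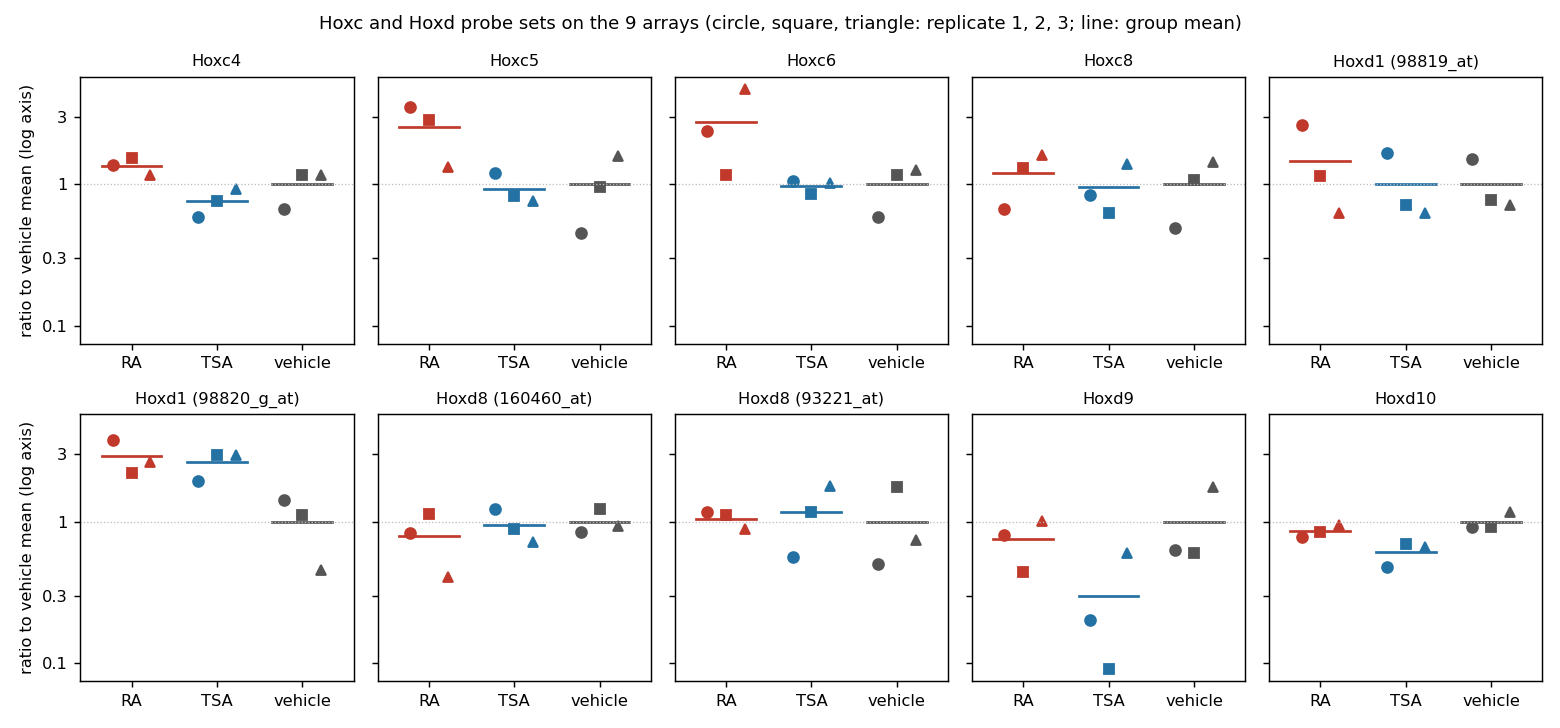
Ratio to the vehicle mean (log axis) of each Hoxc and Hoxd probe set on the 3 RA, 3 TSA and 3 vehicle arrays, with replicates 1, 2 and 3 as circle, square and triangle and the group mean as a line. On Hoxd1 (_g_at) all RA and TSA points lie above all vehicle points, while Hoxd10 has all TSA points below all vehicle points and most other panels overlap.

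Hoxc4, the 3′ member of the HoxC cluster and a paralog of Hoxd4, was higher on every RA array than on every TSA array. Its RA arrays read 1.36, 1.52 and 1.16, its TSA arrays 0.586, 0.766 and 0.933, and its vehicle arrays 0.667, 1.17 and 1.17. Both treatments overlapped vehicle. The log2 change was 0.45 in RA (interval -0.18 to 1.07) and -0.35 in TSA (interval -0.98 to 0.27). RA against TSA gave 0.80 ± 0.27 (SE, n = 3 each), with limma's adjusted p at 0.178.

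Hoxc5 and Hoxc6, which in embryos mark cervical and upper thoracic levels, had the highest RA changes of the HoxC genes. Hoxc5 read 3.51, 2.84 and 1.33 in RA, 1.21, 0.828 and 0.765 in TSA, and 0.456, 0.954 and 1.59 in vehicle. RA replicates 1 and 2 were above all other arrays, and RA replicate 3 lay below vehicle replicate 3. Its mean was 2.56 ± 1.11 in RA, 0.934 ± 0.241 in TSA and 1 ± 0.569 in vehicle (SD, n = 3 each).
The log2 change of Hoxc5 was 1.36 ± 0.49 in RA against vehicle (SE, n = 3 each, interval 0.26 to 2.47), with limma's adjusted p at 0.281. It was 0.04 in TSA (interval -1.07 to 1.14) and 1.32 in RA against TSA (interval 0.22 to 2.43, limma adjusted p = 0.208), where the arrays did not overlap. Without the same 2 arrays of high 18S signal the RA change of Hoxc5 was 2.17 (limma adjusted p = 0.0787), and the part of that signal in these results was not tested.

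Hoxc6 read 2.38, 1.17 and 4.70 in RA, 1.06, 0.860 and 1.02 in TSA, and 0.584, 1.16 and 1.26 in vehicle. RA replicate 2 lay inside the vehicle range, while RA replicates 1 and 3 lay above it. The log2 change was 1.27 ± 0.48 in RA (SE, n = 3 each, interval 0.18 to 2.36), with limma's adjusted p at 0.314, and 0.97 without the 2 arrays of high 18S signal (limma adjusted p = 0.342). In TSA it was 0.04 (interval -1.06 to 1.13), and RA against TSA gave 1.23 (interval 0.14 to 2.33, limma adjusted p = 0.236), again with arrays that did not overlap. RA replicate 3 carried the highest Hoxc6 value and the lowest Hoxc5 value among the RA arrays.

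Hoxc8, a thoracic gene, and Hoxd8, of the same paralog number, showed no separation of the groups. Hoxc8 read 0.666, 1.31 and 1.63 in RA, 0.844, 0.629 and 1.40 in TSA, and 0.493, 1.07 and 1.44 in vehicle. Its log2 change was 0.28 in RA (interval -0.80 to 1.36) and -0.01 in TSA (interval -1.09 to 1.07).
Hoxd8 had a probe set with a vehicle SD of 0.199, called A here, and 1 with a vehicle SD of 0.665, called B. Probe set A read 0.828, 1.13 and 0.407 in RA, 1.22, 0.889 and 0.718 in TSA, and 0.849, 1.22 and 0.926 in vehicle. Probe set B read 1.16, 1.11 and 0.890 in RA, 0.559, 1.16 and 1.79 in TSA, and 0.503, 1.75 and 0.742 in vehicle. Both had overlapping groups throughout, and they differed in sign, at -0.41 for A and 0.25 for B in RA, and -0.10 for A and 0.26 for B in TSA. 

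Hoxd9 and Hoxd10, toward the 5′ end of the HoxD cluster and active in limb buds and the caudal trunk, had the lowest mean ratios in TSA. Hoxd9 read 0.803, 0.441 and 1.01 in RA, 0.203, 0.0913 and 0.602 in TSA, and 0.634, 0.600 and 1.77 in vehicle. TSA replicate 3 lay level with vehicle replicate 2, so the groups met at that point, and TSA replicates 1 and 2 were below all other arrays. The TSA change was -1.71 ± 0.61 (SE, n = 3 each, interval -3.11 to -0.30), with limma's adjusted p at 0.177, and -1.22 without the 2 arrays of high 18S signal (limma adjusted p = 0.303). With the replicate number as a block, the adjusted p was 0.0372, the only Hoxc or Hoxd call that fit gave. In RA the change was -0.29 (interval -1.69 to 1.12), and RA against TSA gave 1.42 (interval 0.02 to 2.82, limma adjusted p = 0.288).

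The Hoxd10 probe set had the smallest standard error of the 10. It read 0.779, 0.847 and 0.945 in RA, 0.476, 0.696 and 0.665 in TSA, and 0.911, 0.923 and 1.17 in vehicle. All TSA arrays lay below all RA and all vehicle arrays, and RA and vehicle overlapped. The TSA change was -0.67 ± 0.21 (SE, n = 3 each, interval -1.15 to -0.20), with limma's adjusted p at 0.127, against a median of -0.17 over all probe sets. Without the 2 arrays of high 18S signal it was -0.56 (limma adjusted p = 0.185). After centring on array medians it was -0.47 (limma adjusted p = 0.304), and after quantile normalisation -0.43 (limma adjusted p = 0.563). In RA the change without these steps was -0.21 (interval -0.68 to 0.27), and RA against TSA gave 0.47 (interval -0.01 to 0.94, limma adjusted p = 0.305). The annotation gives the same source sequence for the Hoxd9 and the Hoxd10 probe set, so their assignment to 1 gene each rests on that annotation.

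**Figure D2:**
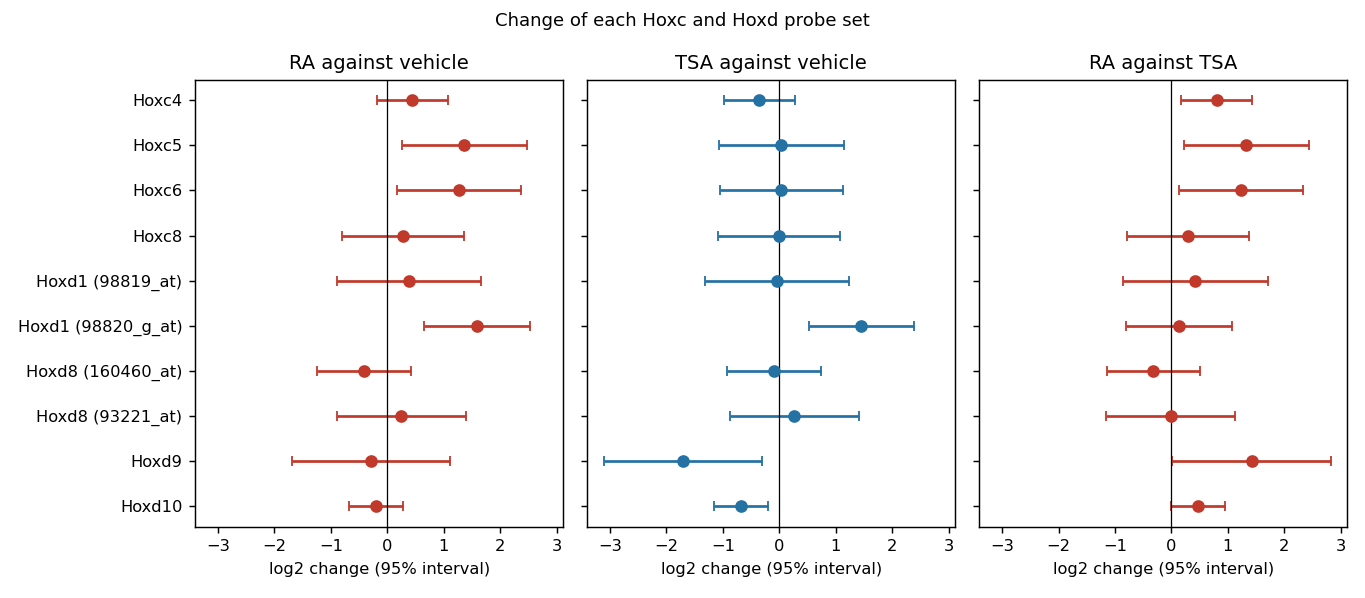
Log2 change of each Hoxc and Hoxd probe set with its 95% interval (not adjusted for the number of probe sets) in RA against vehicle, TSA against vehicle and RA against TSA. In RA the intervals of Hoxc5, Hoxc6 and Hoxd1 (_g_at) lie above 0, in TSA that of Hoxd1 (_g_at) above and those of Hoxd9 and Hoxd10 below, and none passed after adjustment over all probe sets.

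The width of these intervals bounds what was measured. In RA against vehicle the upper bound stayed under a log2 change of 2, a 4-fold rise, for 7 of the 10 probe sets and reached it for Hoxc5, Hoxc6 and the _g_at probe set of Hoxd1. In TSA it reached it only for that Hoxd1 probe set, and the lower bound passed a 4-fold fall only for Hoxd9. The median change of the 10 was 0.33 in RA, against -0.12 over all probe sets, with 7 above 0 and 3 below. In TSA it was -0.03, against -0.17, and in RA against TSA 0.45, against 0.05. Within groups the members scattered more than the median probe set, with a median SD on the log2 scale of 0.61 in RA, 0.36 in TSA and 0.66 in vehicle, against 0.31, 0.26 and 0.41 over all.
Vehicle replicate 1 was the lowest of the 3 in 7 of 10 probe sets, including all 4 HoxC ones, against 34.8% of all probe sets, and vehicle replicate 3 was the highest in 6 of 10, against 39.0%.

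Of the Hoxa list 3 of 10 measured genes (Hoxa3, Hoxa4 and Hoxa5) had a probe set that rose in RA against vehicle. Of the Hoxb list 6 of 9 did (Hoxb1, Hoxb3, Hoxb4, Hoxb5, Hoxb6 and Hoxb9). By probe set this was 3 of 14 for Hoxa and 6 of 10 for Hoxb, where 0.934% of all probe sets were called higher. No Hoxa or Hoxb probe set passed in TSA. In RA against TSA 4 of the Hoxa genes (Hoxa3, Hoxa4, Hoxa5 and Hoxa7) and 6 of the Hoxb genes (Hoxb1, Hoxb4, Hoxb5, Hoxb6, Hoxb7 and Hoxb9) had a probe set higher in RA. These were 5 of 14 Hoxa and 6 of 10 Hoxb probe sets, where 1.70% of all were called higher. For a member and a HoxA or HoxB gene of the same paralog number, the member's log2 value minus that of the paralog was computed per array, averaging probe sets of a gene. In 6 of 12 such pairs the RA arrays all lay below the vehicle arrays, and in none above. This is a description: with 3 arrays a group the exact two-sided permutation test cannot give a p below 0.1, so it could not show a difference in any pair, and none is claimed. Among single probe sets, 17.0% did not overlap in RA against vehicle and 26.3% in TSA against vehicle. No such share was computed for pairs of genes, and the shares of single probe sets are no measure for a difference between genes. In each of the 6 pairs the paralog was a gene named above as rising in RA, so the count in part restates those calls. Hoxc4, Hoxc5, Hoxc6, Hoxd9 and Hoxb8 recur among the pairs, which are therefore not separate observations.

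The 6 pairs whose arrays stood apart held paralog numbers 1, 4, 5 and 9. At number 4, Hoxc4 had a change of 0.45 in RA and Hoxb4 rose by 4.98, a difference of -4.54, and Hoxa4 averaged 1.29 over its probe sets, a difference of -0.84. Only 1 of the 4 Hoxa4 probe sets passed in RA. At number 5, Hoxc5 had 1.36 against 3.78 for Hoxb5 and 3.07 for Hoxa5, differences of -2.41 and -1.70. At number 1, Hoxd1 averaged 0.98 against 3.68 for Hoxb1, a difference of -2.69, and at number 9, Hoxd9 had -0.29 against 3.63 for Hoxb9, a difference of -3.92.
The other 6 pairs overlapped. Hoxc6 had a change of 1.27 against 1.90 for Hoxb6 and 0.54 for Hoxa6, Hoxd9 of -0.29 against 0.06 for Hoxa9, and Hoxd10 of -0.21 against 1.12 for Hoxa10. Hoxc8 (0.28) and Hoxd8 (-0.08) stood beside 0.10 for Hoxb8. In TSA the arrays stood apart in 1 of 12 pairs, Hoxc4 (-0.35) against Hoxb4 (1.18), with the same limit on the exact test. Both sets of pairs share the vehicle arrays.

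**Figure D3:**
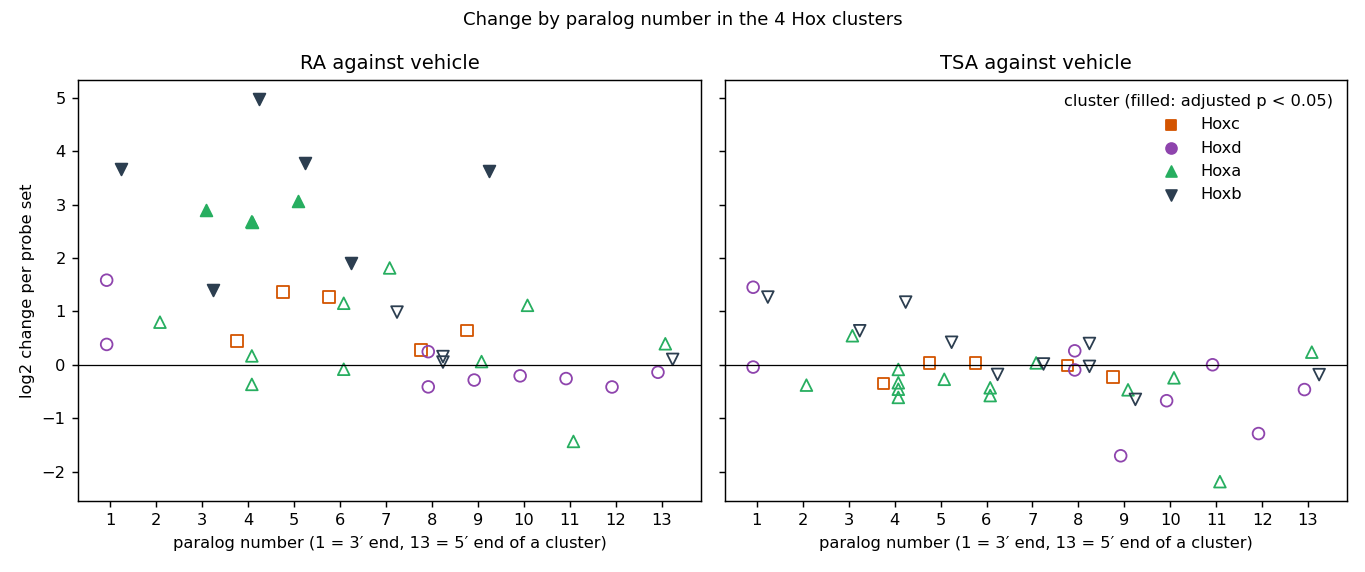
Log2 change per probe set against paralog number for the HoxC, HoxD, HoxA and HoxB clusters in RA and in TSA against vehicle, filled where the adjusted p was under 0.05. In RA the filled symbols are Hoxa and Hoxb genes, and all Hoxc and Hoxd symbols are open and at or below 1.59, while in TSA no symbol of any cluster is filled.

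Of the remaining genes of the clusters, Hoxc9, Hoxd11, Hoxd12 and Hoxd13 were measured, and none passed in any comparison (median change -0.20 in RA and -0.35 in TSA). Of 14 measured genes in the regions around the clusters, among them Evx2 and Mtx2 beside HoxD, none passed. None of 16 measured Polycomb and Trithorax genes, which silence and maintain Hox clusters, passed in any comparison, with medians of -0.17 in RA and -0.05 in TSA, and none of 5 retinoid receptor genes. Of all probe sets, 1.36% passed in RA against vehicle, 3.48% in TSA against vehicle and 3.91% in RA against TSA. At shares this low, the absence of calls in these lists does not set their genes apart from the rest of the array or show them unchanged. Of 6 measured Hox cofactors, which bind DNA together with Hox proteins, Meis1 rose in RA by 3.37 and Meis2 was higher in RA than in TSA by 1.38. Of 6 factors upstream of Hox genes Cdx1 rose with both compounds, by 3.85 in RA and 3.91 in TSA.

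Genes chosen as treatment checks rose with their compound. Stra8, induced by retinoids, read 224 ± 14.9 in RA and 21.2 ± 5.21 in TSA times the vehicle mean (SD, n = 3 each), and the linker histone gene H1f2 18.1 ± 5.69 in TSA. By log2 change, Cyp26a1 (5.94) and Crabp2 (5.38) rose in RA. Crabp2 (4.10) and the cyclin-dependent kinase inhibitor Cdkn1a (1.60 on 1 probe set) rose in TSA, also by log2 change. Of 12 embryonal carcinoma markers 4 fell in RA (Zfp42, Utf1, Tdgf1 and Tcl1) and 4 in TSA (Utf1, Tdgf1, Gdf3 and Klf4). Because the values are ratios, the markers' presence in vehicle cells could not be checked. Gata6 and Sox7 of 14 endoderm markers rose in RA and Lama1 in TSA. Col1a1, Thy1 and Cnn1 of 10 fibroblast markers and Nes and Tubb3 of 7 neural markers rose in TSA, none of either list in RA, and none of 4 mesoderm markers passed. In RA against TSA, Gdf3, Gata6, Sox7 and Col4a1 were higher in RA, and Zfp42, Tcl1, Col1a1, Thy1, Cnn1 and Tubb3 were lower in RA. Over all probe sets, 0.934% were called higher and 0.427% lower in RA against vehicle, and 2.21% and 1.27% in TSA against vehicle. For RA against TSA the shares were 1.70% and 2.21%. A marker gene was counted when any 1 of its probe sets passed. The mean log2 value of the fibroblast list was -0.52, -0.30 and -0.13 on the RA arrays, 0.57, 0.35 and 0.68 on the TSA arrays, and -0.48, -0.68 and 0.56 on the vehicle arrays, and its part in the Hoxc and Hoxd values was not tested. Median ratios per array ran from 0.862 to 0.915 in RA, 0.821 to 0.878 in TSA and 0.975 to 1.02 in vehicle.

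**Figure D4:**
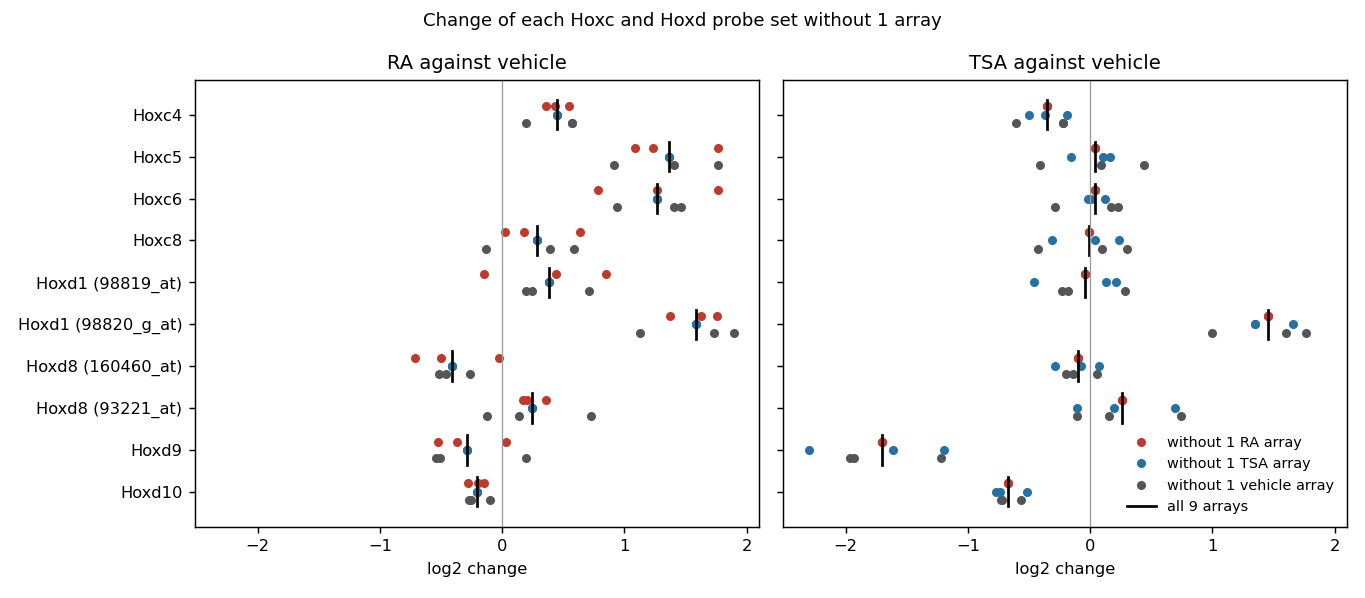
Log2 change of each Hoxc and Hoxd probe set in RA and in TSA against vehicle with all 9 arrays (black line) and with 1 array left out (points, coloured by the group of that array). The change of Hoxc6 in RA ran from 0.78 without RA replicate 3 to 1.76 without RA replicate 2, that of Hoxd1 (_g_at) stayed between 1.13 and 1.90, and in TSA that of Hoxd9 between -2.30 and -1.20.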

How the data were processed

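Total RNA of F9 cells was hybridised to 9 arrays, 3 per group, and titles gave each array's group and replicate number. The deposited values are linear ratios per probe set and array, and the vehicle arrays average 1 in every probe set within 1.93e-07. Per the labels of the vehicle arrays, raw data were entered into GeneSpring; the sources used here give no other step. The 66 control probe sets were left out. Symbols came from the platform annotation, updated through Entrez IDs with the RefSeq table of GRCm38.p6. Of 12422 probe sets 10833 had 1 symbol, 396 several and 1193 none, and 16 of those with 1 had an ID outside the table.

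Log2 values were computed from the deposited ratios with a pseudocount of 0.05 and fitted with limma 3.58.1 in R 4.3.3 over all 9 arrays (6 residual degrees of freedom), without scaling or filter; p-values were adjusted over all probe sets. The procedure was tested on simulated data. Precision is limited by the number of arrays. The members, gene lists and alternatives were chosen with earlier results of these data known, so the lists are not independent evidence, and the promoter motifs were chosen after the promoters were read. Named were all members, measured Hoxa and Hoxb genes with a member's paralog number, up to 6 genes per list and comparison past the threshold, and treatment checks; the 3 genes most like each changed member were to be named, but no member passed. Evx2, Mtx2, Hoxc9, Hoxd11, Hoxd12 and Hoxd13 were named outside that rule. Alternatives were the pseudocount, centring, quantile normalisation, a filter, averaging probe sets, fits of the 6 arrays compared, a replicate block, a variance trend, array weights and leaving out arrays. Gene-by-gene array weights were added after seeing the data.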

Additional observations from a re-analysis of the deposited data

How the results depend on the processing

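The count of changed Hoxc and Hoxd probe sets was 0 in each of the 3 comparisons by limma, and it stayed 0 in 59 of 63 combinations of comparison and alternative, leaving out each of the 9 arrays and both arrays of highest 18S signal included. The exceptions were array weights and the replicate block. Limma's default array weights gave 2 calls in RA against vehicle, Hoxc5 and Hoxd1 (_g_at). They gave 4 in TSA against vehicle, Hoxc4, Hoxd1 (_g_at), Hoxd9 and Hoxd10. But that estimate stopped before convergence and gave vehicle replicate 2 a weight of 21.4 against at most 1.68 for any other array. The gene-by-gene estimate, added after seeing the data, weighted that array 3.19 and gave 2 calls in TSA against vehicle, Hoxd1 (_g_at) and Hoxd10. The plain _at probe set of Hoxd1 was called with neither set of weights. The replicate block gave 1 call, Hoxd9 in TSA against vehicle, and a change of call nowhere else. Deviations of same-numbered arrays correlated between -0.032 and 0.289. No comparison with differently numbered arrays was made, so these values cannot decide whether the numbers pair samples. The labels do not say that they do, and the block result is a count only. Over all probe sets, where 169 passed in RA against vehicle, 432 in TSA against vehicle and 486 in RA against TSA, quantile normalisation gave 87, 108 and 152, the fits of 6 arrays 61, 168 and 480, default weights 2196, 4494 and 943, gene-by-gene weights 549, 1771 and 890, and the variance trend 111, 352 and 509. Without both 18S arrays 98 passed in RA against vehicle, and leaving out 1 array gave 54 to 209, 107 to 494 and 167 to 624. The filter left 8 of the 10 probe sets, without Hoxd9 and Hoxd10. It ranked probe sets by their mean ratio over all arrays, with the vehicle mean fixed at 1. It thus removed those that read low in RA or TSA and was no filter on brightness. Its counts of 0 could not include a fall of Hoxd9 or Hoxd10. The cause of the other changes was not tested.

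Of 624 single changes under alternatives, 50 turned sign, each from a main log2 change under 0.5 in size. Hoxd8 (B) came to -0.083 in RA with averaged probe sets, -0.64 and -0.35 in RA with default and gene-by-gene weights, -0.89 and -0.57 in TSA with the same weights, and in RA against TSA to 0.25 and 0.22 with them, 0.048 with quantile normalisation and 0.096 without both 18S arrays. Hoxd8 (A) came to 0.10 in TSA with centring, 0.083 with averaging, and 0.068 in RA against TSA without both 18S arrays. Hoxc8 in TSA came to 0.19 with centring, 0.11 with quantile normalisation and 0.30 without both 18S arrays. Hoxd1 (plain _at) in TSA came to 0.16, 0.036, 0.71, 0.43 and 0.30 with centring, quantile normalisation, averaging, default and gene-by-gene weights. Hoxc6 in TSA came to -0.20 and -0.095 with the weights, and Hoxd9 in RA to 0.062 with the default weights. Leaving out 1 array, the ranges that crossed 0 were, in RA against vehicle, Hoxc8 -0.13 to 0.64, Hoxd1 (plain _at) -0.14 to 0.85, Hoxd8 (B) -0.12 to 0.73, Hoxd9 -0.54 to 0.20; in TSA against vehicle, Hoxc5 -0.41 to 0.44, Hoxc6 -0.29 to 0.23, Hoxc8 -0.43 to 0.30, Hoxd1 (plain _at) -0.46 to 0.28, Hoxd8 (A) -0.29 to 0.073, Hoxd8 (B) -0.11 to 0.74; and in RA against TSA, Hoxd1 (plain _at) -0.10 to 0.89, Hoxd1 (_g_at) -0.077 to 0.30, Hoxd8 (A) -0.62 to 0.068, Hoxd8 (B) -0.45 to 0.35. The replicates' number and the unknown brightness limit what can be detected.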
